A study of Mus musculus with 12 samples.

Results

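The methionine cycle and transsulfuration enzymes were followed here as 9 genes, Mat1a, Mat2a, Mat2b, Bhmt, Bhmt2, Ahcy, Cbs, Cth and Mtr, of the 56205 genes in the count table. They were chosen by name, for what their enzymes do, though with earlier results of these data known, and all 9 passed the low-count filter. Liver RNA came from 12 ob/ob mice, obese because they make no functional leptin, with 1 library per mouse and 6 libraries per group. The fibrotic group had standard chow and ethionine, the ethyl analogue of methionine, and the FLO group had standard chow without it. Fibrotic and FLO are words of the sample titles, and fibrosis itself was not assessed here. Genotype and chow were therefore common to both groups, and ethionine was the labelled difference. The labels give 0.165% DL-ethionine in the drinking water for 2 weeks in one field and an injection of 0.15% in another, and the study's methods give a lower concentration and a shorter exposure than the first of these. The mice were young adults at the start and only males were to be used. RNA was extracted from the whole liver with Trizol and poly(A)-selected, so every cell type of the liver contributed to each value.

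Methionine adenosyltransferase (MAT) joins methionine to ATP and makes S-adenosylmethionine, the methyl donor of most cellular methylation. Mat1a encodes the catalytic subunit of adult hepatocytes, Mat2a the catalytic subunit of other tissues and of growing or dedifferentiated hepatocytes, and Mat2b a regulatory partner of the Mat2a product. After the methyl group is given away, Ahcy splits S-adenosylhomocysteine into homocysteine and adenosine. Homocysteine is then methylated back to methionine by Bhmt or Bhmt2, or by the folate-dependent and cobalamin-dependent enzyme of Mtr, or it leaves the cycle through Cbs and Cth, which pass its sulfur to cysteine. Ethionine is itself a MAT substrate, and the S-adenosylethionine that forms is known to trap adenosine in the liver.

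Because 2 pairs of these genes are related in sequence, the stretches in which the pairs are most alike are shown, since reads there are the hardest to assign. They are coding sequence from the GENCODE M21 annotation of GRCm38, the assembly that the labels call mm10, written 5′ to 3′ with the bases that differ within a pair in capitals. Mat1a (chr14:41105035-41124412, plus strand) is shown from coding base 260 to 319 and Mat2a (chr6:72432799-72439558, minus strand) from 257 to 316. Bhmt (chr13:93616675-93637961) is shown from 878 to 937 and Bhmt2 (chr13:93655720-93674302) from 851 to 910, and both lie on the minus strand.
Mat1a: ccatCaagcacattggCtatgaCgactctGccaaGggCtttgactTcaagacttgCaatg
Mat2a: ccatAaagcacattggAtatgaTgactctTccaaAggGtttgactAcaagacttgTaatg
Bhmt: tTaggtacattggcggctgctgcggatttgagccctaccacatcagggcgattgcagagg
Bhmt2: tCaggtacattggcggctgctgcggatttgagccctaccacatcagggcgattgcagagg
Mat1a and Mat2a matched at 52 of 60 bases in this stretch and at 73.6% of 1182 aligned coding bases, and their longest identical run was 15 bases. A read of ordinary length could therefore be placed on one or the other. Bhmt and Bhmt2 matched at 59 of 60 bases here and at 75.4% of 1088 aligned coding bases, with a longest identical run of 59 bases.

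Identity with pseudogenes and other copies differed widely among the 9 genes. Over the 50-base words of each transcript, Mat1a, Mat2b, Cbs, Cth and Mtr were 100% unique among annotated transcripts, Bhmt2 93.7% and Mat2a 86.1%. Bhmt was 38.5% unique, mainly because Gm5096 and the pseudogene Bhmt-ps1 repeat it, yet these held only 6 to 25 and 0 to 6 counts per library. Ahcy was 23.0% unique, and its copy Gm4737, which shares 74.1% of the words, held 1108 to 4974 counts per library. The processed pseudogene Gm9523 shares 7.95% of the Mat2a words and held 110 to 244 counts per library. Copies that share less than 20% of the words, Gm9523 among them, were not summed with their gene in the alternatives. The antisense transcript Particl overlaps 508 exon bases of Mat2a and held 9 to 39 counts, and Gm15622 overlaps 187 exon bases of Bhmt and held 9 to 40 counts. Whether the counting used strand is not given in the sources used here, so reads of an overlapping pair cannot be told apart.

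The RefSeq table (GRCm38.p6) held a promoter for 7 of the 9 genes, and no entry was found for Mat1a or Cth. The 250 bases before the start are shown for Mat2a (chr6:72439557-72439806) and Ahcy (chr2:155074498-155074747), the genes with a promoter entry whose calls lie on either side of the S-adenosylmethionine step. Both are given on the minus strand, 5′ to 3′, with matches to the searched motifs in capitals.
Mat2a: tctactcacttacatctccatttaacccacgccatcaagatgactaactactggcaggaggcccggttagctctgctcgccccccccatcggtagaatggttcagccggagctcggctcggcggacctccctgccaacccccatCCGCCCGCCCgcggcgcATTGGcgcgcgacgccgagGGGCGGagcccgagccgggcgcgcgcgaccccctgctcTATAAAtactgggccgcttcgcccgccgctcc
Ahcy: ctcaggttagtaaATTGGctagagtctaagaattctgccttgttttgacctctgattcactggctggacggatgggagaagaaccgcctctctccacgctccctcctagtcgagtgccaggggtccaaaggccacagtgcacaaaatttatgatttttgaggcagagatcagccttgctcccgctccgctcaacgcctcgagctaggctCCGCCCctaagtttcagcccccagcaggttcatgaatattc
The Mat2a promoter held 67.6% G and C, with matches to the GC box (GGGCGG) at -106 to -101, -102 to -97 and -70 to -65, of which the first 2 overlap, to CCAAT at -89 to -85 and to the TATA box (TATAAA) at -32 to -27. The Ahcy promoter held 52.8% G and C, with CCAAT at -237 to -233 and a GC box at -41 to -36. Both strands were searched. CCAAT was in 6 of the 7 promoters, against 33.8% of all 32851 promoters in the table, and the GC box in 6 of 7, against 32.7%. TATAAA was in 1 of 7, that of Mat2a, against 12.4%, and the E-box CACGTG in 1 of 7, that of Cbs, against 6.02%. The amino acid response element (TGATGNAA) matched 0 of 7 and 3.45% of all promoters, and the antioxidant response element (TGACNNNGC) 0 of 7 and 10.2%. A match here is a run of letters in a short window.

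The fibrotic libraries held 17815568 to 20352675 counts each and the FLO libraries 18275320 to 24814263. FLO replicate 3 went against the stated sex, with 3773 counts of Xist, which the inactive X chromosome transcribes, where other libraries held at most 4, and with 4 counts of the Y-linked Ddx3y, where others held at least 556. It stayed in the FLO group, and results are also given with it left out. Hepatocyte markers identified the tissue, with a summed level of 70275 to 112434 CPM (counts relative to a TMM-scaled library total) in fibrotic and 91018 to 107709 CPM in FLO libraries and none of the 10 at 0, and 2 of them (Cps1, Fgb) rose while 2 (Apoa1, Fah) fell. Some markers of other liver cells differed between the groups. Of 6 cholangiocyte markers 3 rose (96.4 to 295 against 59.6 to 102 CPM summed), and of 7 macrophage and Kupffer cell markers 5 rose (234 to 474 against 183 to 221). Spp1 made up most of the cholangiocyte sum, with 238 of 295 CPM in fibrotic replicate 5. Of 6 stellate cell markers 1 rose (193 to 320 against 174 to 264), and of 5 endothelial markers 1 fell (112 to 142 against 150 to 167). Over all tested genes, 15.9% were called higher and 14.0% lower, by the criteria given below. The stellate and endothelial counts lie near these shares, and the summed cholangiocyte and stellate ranges overlapped between groups. The summed macrophage and endothelial ranges did not overlap, the endothelial one being lower in fibrotic livers. None of the members of these lists was at 0 in all libraries. The collagen gene Col1a1, one of the stellate markers, ran from 11.3 to 46.8 CPM in fibrotic and from 12.7 to 42.2 CPM in FLO libraries. The study saw no Col1a1 difference in ob/ob mice given ethionine, so the group name is used here as a label only. The part of these other cells in the values of the 9 enzymes was not tested. The 5 lymphocyte markers summed to at most 3.09 CPM, and the pancreatic markers Cpa1, Cpb1 and Pnlip were at 0 throughout. In whole liver, fewer cells of a type and less RNA per cell cannot be told apart.

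Ethionine-treated livers had less mRNA for the liver MAT and for Ahcy and more for Mat2a, Bhmt2 and Cth. In numbers, 5 of the 9 genes were called by edgeR (adjusted p at most 0.01 and a log2 fold change beyond 0.5 in size, fibrotic against FLO), 3 higher and 2 lower. The background was high, since 29.9% of all 13416 tested genes were called, 15.9% higher and 14.0% lower. Mat1a and Ahcy were also the only ones of the 9 whose libraries did not overlap between groups, where 30.4% of tested genes did not. The median log2 fold change of the 9 was -0.17, beside 0.03 over all tested genes. Without FLO replicate 3 the number called was 4, Mat2a being lost. Leaving out replicate 2 or 3 of the fibrotic group, or replicate 2 or 4 of the FLO group, made it 3, with Mat2a and Bhmt2 both lost each time.

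**Figure D1:**
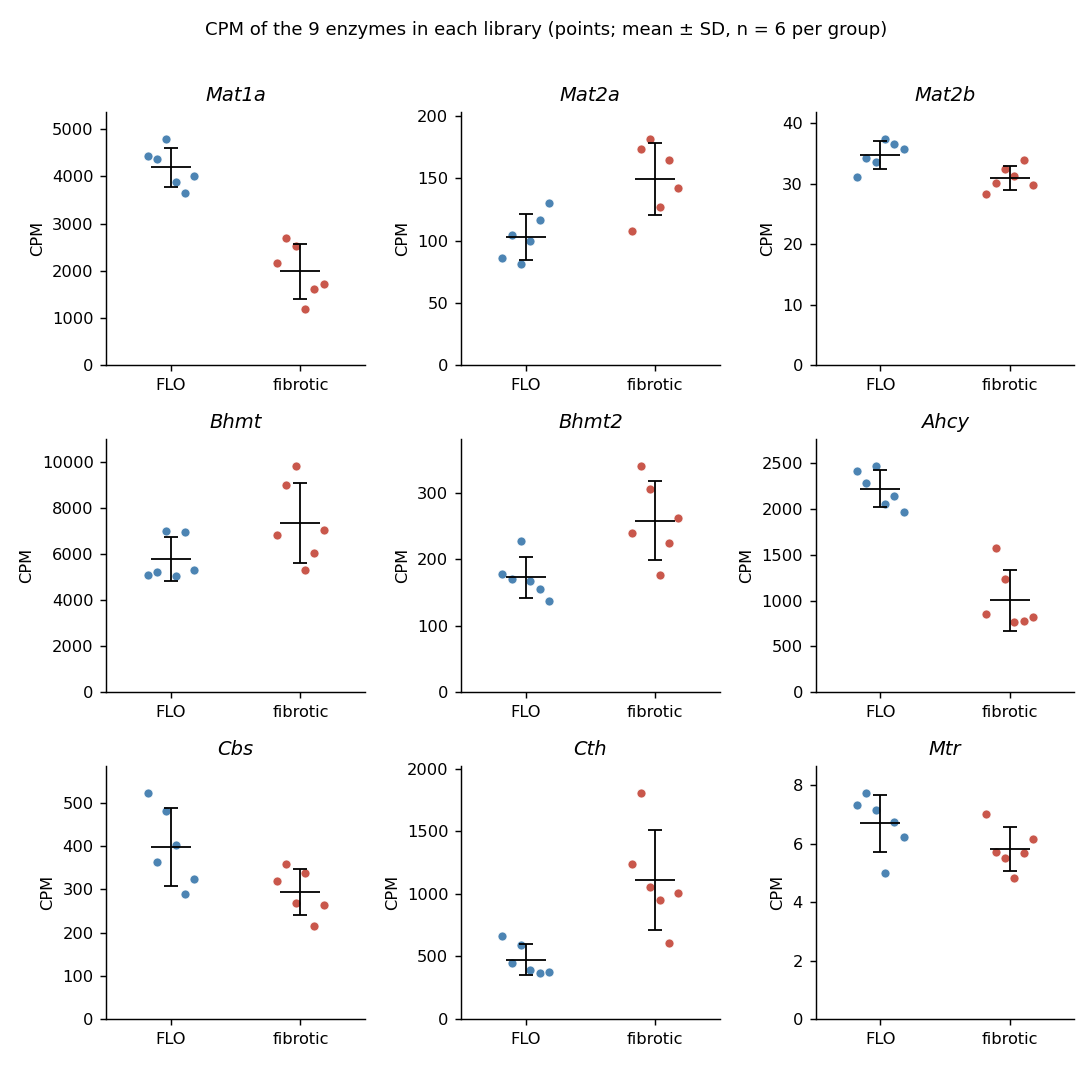
CPM (vertical axes, each starting at 0) of the 9 enzymes in each of the 6 FLO and 6 fibrotic libraries, one point per library, with bars for the mean ± SD. Mat1a and Ahcy separate completely, Cth overlaps by 1 fibrotic library, and Mat2a, Mat2b, Bhmt, Bhmt2, Cbs and Mtr also overlap between groups.

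At the S-adenosylmethionine step the genes for the catalytic subunits moved in opposite directions. Mat1a ran from 1189 CPM through a median of 1945 to 2703 CPM in fibrotic livers and from 3648 through 4182 to 4797 CPM in FLO livers. Every fibrotic library was below every FLO library. Mat1a thus fell from 4190 ± 421 to 1986 ± 582 CPM (SD, n = 6 each), 2.11-fold, with a log2 fold change of -1.08 (SE 0.17, edgeR adjusted p = 0.000105). Without FLO replicate 3 it was -1.04. With each library scaled to its hepatocyte markers in place of TMM it was -0.94 and still called. That scaling used the summed counts of the markers, so it rested mostly on Alb and Trf. In fibrotic replicate 4 these were 40385 and 13710 of 70275 CPM.

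Mat2a, the catalytic subunit of MAT II, ran from 108 through 153 to 182 CPM in fibrotic and from 80.9 through 102 to 131 CPM in FLO livers. The groups overlapped, with 4 fibrotic libraries above every FLO library and all 6 above the FLO median. The mean rose from 103 ± 18.6 to 149 ± 28.7 CPM (SD, n = 6 each), a log2 fold change of 0.54 (SE 0.14, edgeR adjusted p = 0.00483) and a fitted fold of 1.45. The call was close to its threshold, and leaving out any of 7 libraries ended it, with log2 fold changes of at least 0.47 and adjusted p up to 0.0132 (without FLO replicate 1). Mat2b, its regulatory partner, ran from 28.2 through 30.6 to 33.9 CPM in fibrotic and from 31.2 through 34.9 to 37.4 CPM in FLO livers. It was not called (log2 fold change -0.17, 95% interval -0.32 to -0.02, edgeR adjusted p = 0.0594), and its sign turned under other scalings.

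The Mat1a to Mat2a ratio within a library needs no scaling between libraries and separated the groups. In fibrotic replicates 1 to 6 there were 20.1, 15.6, 13.9, 9.34, 9.76 and 12.1 counts of Mat1a per count of Mat2a. In FLO replicates 1 to 6 there were 51.5, 41.7, 59.3, 38.9, 31.3 and 30.6. The highest fibrotic library, replicate 1, lay below the lowest FLO library, replicate 6. On the log2 scale the ratio was 3.70 ± 0.42 in fibrotic and 5.36 ± 0.38 in FLO livers (SD, n = 6 each), a difference of -1.66 (two-sided exact permutation test, p = 0.00216, the smallest that 924 assignments allow, and 0.00289 adjusted over the 4 ratios tested). Without FLO replicate 3 the difference was -1.55.

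Per kilobase of transcript, Mat1a was still the more abundant MAT transcript in every library, at 11.8 ± 3.53 times Mat2a in fibrotic and 36.9 ± 9.91 times in FLO livers (SD, n = 6 each). Its share of the summed catalytic transcripts was 89.1% to 94.6% in fibrotic livers and 96.4% to 98.1% in FLO livers. The mean share was 91.7 ± 2.14% in fibrotic and 97.2 ± 0.694% in FLO livers, a difference of -5.53 percentage points (SD, n = 6 each, two-sided exact permutation p = 0.00216). The share restates the Mat1a to Mat2a ratio of the same counts, so its separation and p follow from the ratio and are not a further test. The sum itself was lower too, at 672 ± 187 against 1343 ± 126 CPM per kilobase (SD, n = 6 each, log2 difference -1.04, exact permutation p = 0.00216). Mat2a was a small part of this sum in both groups. The Mat2a to Mat2b ratio was also higher, at 4.81 ± 0.781 counts against 2.96 ± 0.443 (SD, n = 6 each), with the lowest fibrotic library at 3.82 and the highest FLO library at 3.66 (log2 difference 0.70, exact permutation p = 0.00216, adjusted 0.00289).

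**Figure D2:**
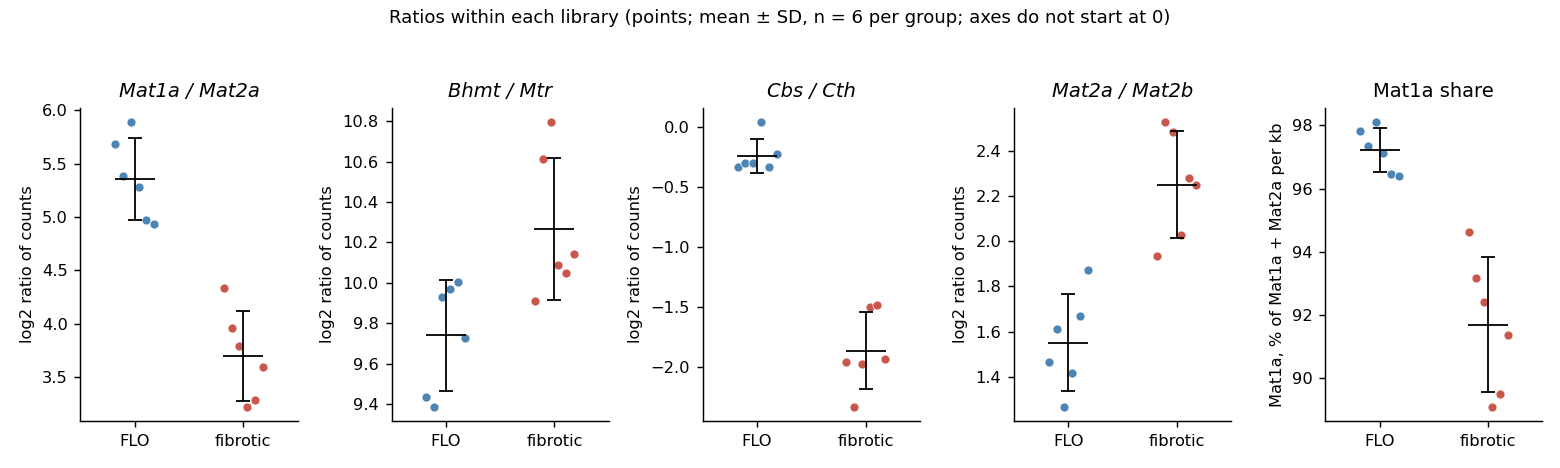
Ratios within each library (points) with the mean ± SD for 6 FLO and 6 fibrotic libraries, as log2 ratios of counts in the first 4 panels and as the percent of Mat1a in Mat1a plus Mat2a per kilobase in the last, and no axis starts at 0. The groups separate in every panel except Bhmt to Mtr, and FLO replicate 4 stands above the other FLO libraries in Cbs to Cth.

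Ahcy, whose product hydrolyses S-adenosylhomocysteine, had the largest fitted fall of the 9 genes. It was not set apart from that of Mat1a (log2 fold change -1.08, SE 0.17). Ahcy ran from 764 through 838 to 1577 CPM in fibrotic livers and from 1968 through 2218 to 2474 CPM in FLO livers. The groups did not overlap, and fibrotic replicate 2 stood highest among the treated livers. The mean fell from 2224 ± 202 to 1004 ± 331 CPM (SD, n = 6 each), 2.22-fold, with a log2 fold change of -1.15 (SE 0.17, edgeR adjusted p = 5.61e-05), and it was -1.12 without FLO replicate 3. The value is uncertain to the extent that reads were split with Gm4737, which fell as well (log2 fold change -1.24, edgeR adjusted p = 5.40e-06). The share of Gm4737 in the counts of both was 6.36% to 9.04% in fibrotic and 7.02% to 9.18% in FLO livers, ranges that overlapped, and the summed counts gave a log2 fold change of -1.16.

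Of the enzymes that remethylate homocysteine, Bhmt2 rose while Bhmt and Mtr were not called. Bhmt, betaine-homocysteine methyltransferase, ran from 5281 through 6905 to 9822 CPM in fibrotic and from 5024 through 5261 to 6994 CPM in FLO livers. Only 3 fibrotic libraries lay above every FLO library. The log2 fold change was 0.35 (95% interval 0.00 to 0.69, edgeR adjusted p = 0.0824). With library size alone as the scaling it was 0.50 and called. Bhmt2, which uses S-methylmethionine as its methyl donor, ran from 176 through 251 to 341 CPM in fibrotic and from 137 through 169 to 227 CPM in FLO livers. The groups overlapped, 4 fibrotic libraries lying above every FLO library. The mean rose from 173 ± 30.5 to 258 ± 59.0 CPM (SD, n = 6 each), a fitted fold of 1.49 and a log2 fold change of 0.58 (SE 0.15, edgeR adjusted p = 0.00468). Leaving out any of 6 libraries ended this call, with adjusted p up to 0.0129 (without FLO replicate 6), whereas without FLO replicate 3 it was 0.67 and called.

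Mtr, methionine synthase, was the scarcest of the 9, at 102 to 167 counts per library. It ran from 4.82 through 5.70 to 7.03 CPM in fibrotic and from 4.99 through 6.95 to 7.75 CPM in FLO livers. The groups overlapped, with 3 FLO libraries above every fibrotic library and 1 fibrotic library below every FLO library. The log2 fold change was -0.20 (95% interval -0.48 to 0.07, edgeR adjusted p = 0.208), and it was not called. The Bhmt to Mtr ratio on the log2 scale was 10.27 ± 0.35 in fibrotic and 9.74 ± 0.27 in FLO livers (SD, n = 6 each), a difference of 0.53 (two-sided exact permutation p = 0.0108, adjusted 0.0108) with overlapping groups. Neither gene was called on its own.

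In transsulfuration the gene of the second step rose and that of the first was not called. Cbs, cystathionine beta-synthase, ran from 216 through 294 to 359 CPM in fibrotic and from 290 through 383 to 524 CPM in FLO livers. The groups overlapped, and the log2 fold change of -0.44 (95% interval -0.77 to -0.11, edgeR adjusted p = 0.0273) was not called. Cth, cystathionine gamma-lyase, ran from 607 through 1033 to 1810 CPM in fibrotic and from 366 through 419 to 660 CPM in FLO livers. Of the fibrotic libraries 5 lay above every FLO library, and replicate 5, the lowest, lay below FLO replicate 1. The mean rose from 473 ± 125 to 1113 ± 400 CPM (SD, n = 6 each), a fitted fold of 2.35 and a log2 fold change of 1.23 (SE 0.23, edgeR adjusted p = 0.000387). Without FLO replicate 3 it was 1.31.

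Within a library there were 0.198 to 0.356 counts of Cbs per count of Cth in fibrotic livers and 0.793 to 1.03 in FLO livers. The ranges were far apart, and the log2 difference was -1.63 (two-sided exact permutation p = 0.00216, adjusted 0.00289). The same libraries were often high or low for both genes. FLO replicate 1 had the highest level of both and FLO replicate 5 the lowest of both among FLO livers, while fibrotic replicate 2 was highest and fibrotic replicate 5 lowest for both among fibrotic livers.

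Per kilobase of transcript the order of the levels changed in its upper part. In FLO livers it was Bhmt (2315 ± 380 CPM per kilobase, SD, n = 6), Mat1a (1306 ± 131), Ahcy (875 ± 79.3), Cth (261 ± 68.7), Cbs (157 ± 35.8), Bhmt2 (70.0 ± 12.3), Mat2a (36.8 ± 6.63), Mat2b (17.8 ± 1.16) and Mtr (0.808 ± 0.118). Only the ranges of Cth and Cbs overlapped among neighbours there, although Cth was above Cbs in 6 of 6 libraries. In fibrotic livers it was Bhmt (2942 ± 700 CPM per kilobase, SD, n = 6), Mat1a (619 ± 182), Cth (613 ± 220), Ahcy (395 ± 130), Cbs (116 ± 21.2), Bhmt2 (105 ± 23.9), Mat2a (53.3 ± 10.2), Mat2b (15.9 ± 1.04) and Mtr (0.702 ± 0.0891). There Mat1a and Cth did not differ beyond their spread, Mat1a being the higher in 2 of 6 libraries, nor did Cbs and Bhmt2, with Cbs higher in 3 of 6. Cth was above Ahcy in 6 of 6 fibrotic libraries, with overlapping ranges, the reverse of their order in FLO livers. Only 23.0% of the 50-base words of Ahcy and 38.5% of those of Bhmt were unique, against 100% for Cth. Lengths were not corrected for this, so the places of Ahcy and Bhmt in the order are uncertain to that extent.

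**Figure D3:**
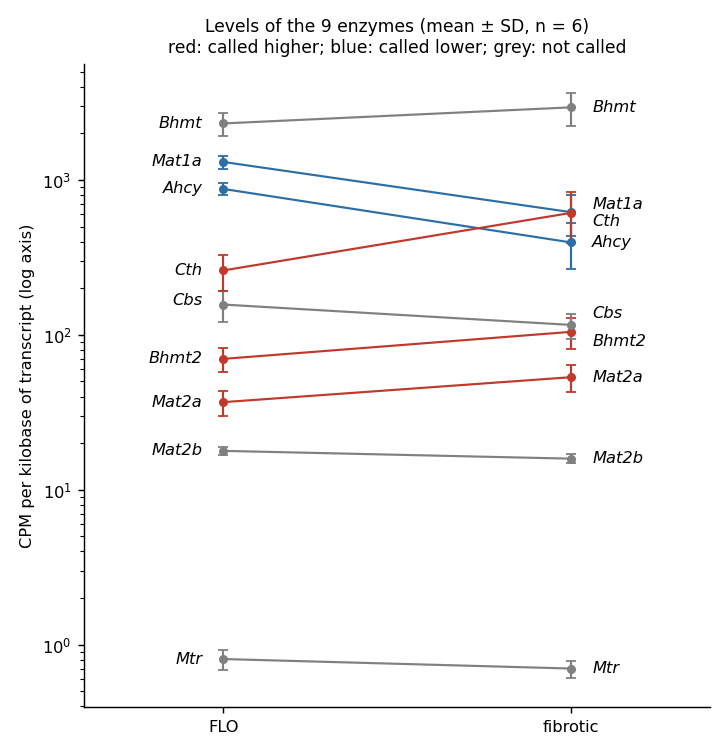
Mean CPM per kilobase of transcript (log axis) of the 9 enzymes in FLO and fibrotic livers, with bars for the SD over 6 libraries, red for called higher, blue for called lower and grey for not called. The lines of Cth and Ahcy cross, and Bhmt is the highest and Mtr the lowest in both groups.

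The spread among livers differed from gene to gene. The coefficient of variation of CPM was 29.3% in fibrotic against 10.04% in FLO livers for Mat1a and 33.0% against 9.06% for Ahcy. For Cth it was 35.9% against 26.4%, for Bhmt 23.8% against 16.4% and for Bhmt2 22.9% against 17.6%. It was about equal for Mat2a (19.2% against 18.02%) and Mat2b (6.56% against 6.51%), and lower in fibrotic livers for Cbs (18.3% against 22.8%) and Mtr (12.7% against 14.6%). These spreads were not tested against each other. Among fibrotic livers, replicate 2 was the highest for 5 genes (Mat1a, Bhmt2, Ahcy, Cbs and Cth) and replicate 4 the lowest for 5 (Mat1a, Bhmt, Bhmt2, Ahcy and Mtr). Replicate 4 also had the largest TMM factor of the 12 libraries, 1.2, and replicate 2 the smallest of the fibrotic ones, 0.965, and the part of the scaling in this order was not tested. Among FLO livers, replicate 3 was the highest for 4 genes (Mat1a, Bhmt, Bhmt2 and Ahcy) and the lowest for Mat2a.

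A further list held 17 genes that regenerate or supply the cycle or act next to it, named methyl supply genes for short. Of these, 7 were called (41.2%), 2 higher and 5 lower, beside 29.9% of all tested genes, 15.9% higher and 14.0% lower. The median log2 fold change of the 17 was -0.20. Pipox, a peroxisomal oxidase of sarcosine and pipecolate, fell 16.2-fold, from 192 ± 17.4 to 11.9 ± 1.5 CPM (SD, n = 6 each, log2 fold change -4.02, edgeR adjusted p = 1.09e-12), the fibrotic libraries lying between 10.02 and 13.7 CPM and the FLO libraries between 178 and 223 CPM. Aldh7a1, which oxidises betaine aldehyde to betaine and also acts in lysine breakdown, fell 4.06-fold, from 703 ± 50.9 to 173 ± 22.9 CPM (SD, n = 6 each, log2 fold change -2.02, edgeR adjusted p = 1.65e-09). Sardh, mitochondrial sarcosine dehydrogenase, fell 2.84-fold, from 1557 ± 217 to 548 ± 127 CPM (SD, n = 6 each, log2 fold change -1.51, edgeR adjusted p = 1.06e-06).

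Shmt1, the cytosolic serine hydroxymethyltransferase, fell with a log2 fold change of -1.03 (edgeR adjusted p = 0.000676). Gnmt, which spends S-adenosylmethionine on glycine and makes sarcosine, fell from 2146 ± 523 to 1215 ± 430 CPM (SD, n = 6 each, log2 fold change -0.82, edgeR adjusted p = 0.00719), with overlapping groups. That call ended without FLO replicate 3 (adjusted p = 0.0181) and without 6 other single libraries. Mettl16, an RNA methyltransferase known to act on the Mat2a transcript, rose from 11.0 ± 1.01 to 25.7 ± 2.81 CPM (SD, n = 6 each, log2 fold change 1.22, edgeR adjusted p = 9.36e-08), the lowest fibrotic library at 22.6 CPM lying well above the highest FLO library at 12.1 CPM. Ahcyl2, related to Ahcy in sequence, rose by 0.56 on the log2 scale (edgeR adjusted p = 0.000364). The other 10 genes were not called and lay between -0.43 and 0.49, among them Dmgdh, dimethylglycine dehydrogenase, at 0.07 (edgeR adjusted p = 0.726), named after its value was seen. In 3 of these, named after their values were seen, the adjusted p passed but the fold did not: Adk, which removes adenosine (-0.39), the mitochondrial Shmt2 (-0.30) and the cobalamin carrier gene Mmadhc (0.49).

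Among 12 genes that use cysteine or handle sulfide, 6 were called (50%), 5 higher and 1 lower, beside 29.9% of all tested genes, 15.9% higher and 14.0% lower. The median log2 fold change of the 12 was 0.10. Gclc, the catalytic subunit of glutamate-cysteine ligase and the first step to glutathione, rose 3.87-fold, from 373 ± 136 to 1444 ± 190 CPM (SD, n = 6 each, log2 fold change 1.95, edgeR adjusted p = 1.23e-06). The lowest fibrotic library was at 1169 CPM and the highest FLO library at 628 CPM. Gclm, the modifier subunit of the same enzyme, named after its value was seen, was at 194 ± 14.1 against 189 ± 18.9 CPM (SD, n = 6 each, log2 fold change 0.03, 95% interval -0.14 to 0.21, edgeR adjusted p = 0.766). Gss, which completes glutathione, rose by 0.88 on the log2 scale (edgeR adjusted p = 3.25e-05).

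Of the other sulfur genes, Got1, an aspartate aminotransferase that also acts on cysteine, rose by 0.81 on the log2 scale (edgeR adjusted p = 0.00199), Ado, cysteamine dioxygenase, by 0.75 (edgeR adjusted p = 2.18e-06) and Ethe1, a mitochondrial persulfide dioxygenase, by 0.59 (edgeR adjusted p = 0.00264). Sqor, which oxidises sulfide in mitochondria, fell with a log2 fold change of -0.52 (edgeR adjusted p = 0.00555), a call that ended without FLO replicate 3 (adjusted p = 0.0145) and without 7 other single libraries. The remaining 6 genes, Gclm among them, lay between -0.18 and 0.12. Groups did not overlap for 3 of these 12 genes (25%) and for 8 of the 17 methyl supply genes (47.1%), beside 30.4% of all tested genes.

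**Figure D4:**
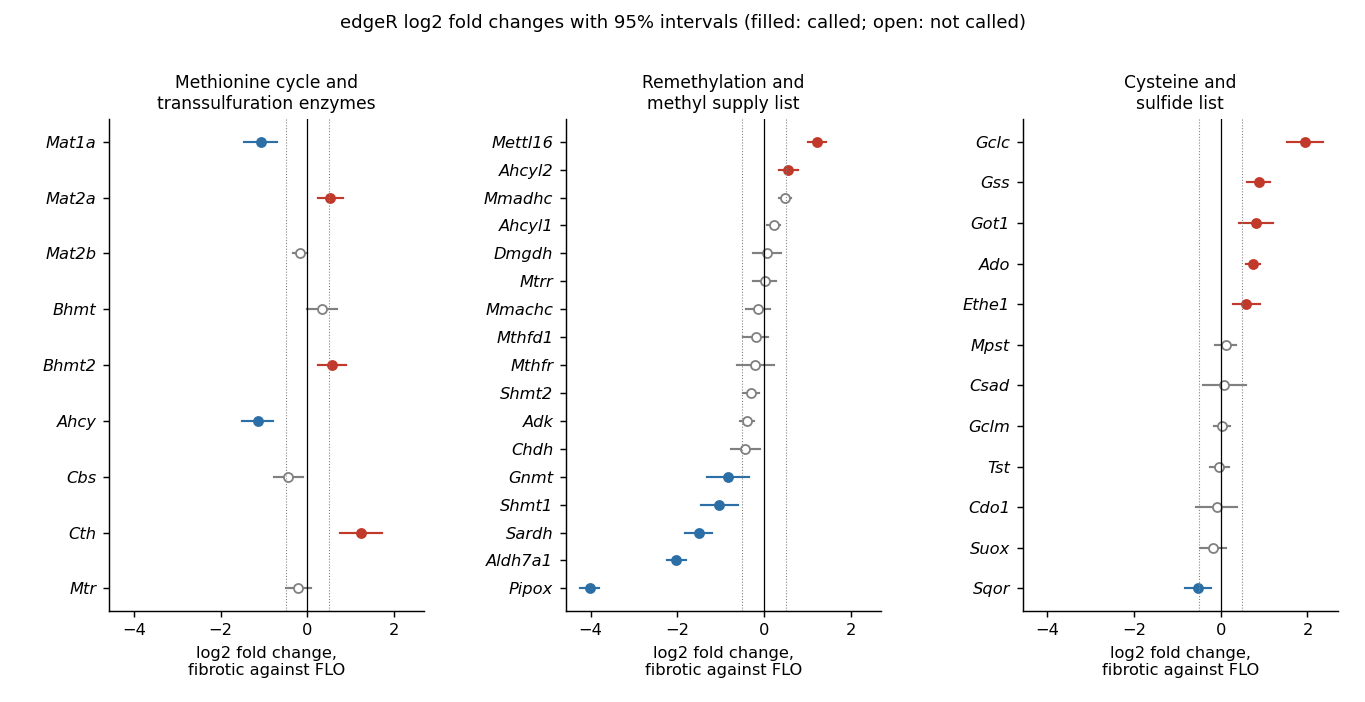
Log2 fold changes from edgeR, fibrotic against FLO (horizontal axis), with 95% intervals, for the 9 enzymes, the 17 methyl supply genes and the 12 cysteine and sulfide genes, with filled points for called genes and dotted lines at the fold limit of 0.5 in each direction. Pipox lies farthest to the left at -4.02 and Gclc farthest to the right at 1.95.

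Across the 12 libraries, after subtraction of each group's mean, the genes whose log2 CPM followed Mat1a most closely were Mavs (Pearson r = 0.96), Uroc1 (0.95) and Sugct (0.95), among 8292 genes whose mean log2 CPM was 3 or more. Among the genes that followed Mat2a most closely were Rab30 (0.89) and Plin5 (0.88). For Cth they were the urea cycle gene Cps1 (0.97), the liver glutaminase gene Gls2 (0.96) and Ndrg2 (0.94). These values describe 12 libraries that share their scaling and were picked as the highest of many. The neighbours did not all differ between groups as the enzyme did. Beside the 1.23 of Cth, the log2 fold changes were 0.73 for Cps1, 0.08 for Gls2 and -0.17 for Ndrg2. Uroc1 (-1.55) and Sugct (-0.85) were lower in fibrotic livers as Mat1a was, and Mavs was at -0.47 and not called.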

How the data were processed

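Liver RNA-seq of 6 fibrotic and 6 FLO ob/ob mice was analysed from 1 table that the authors deposited, which holds raw counts, whole numbers for each Ensembl gene, not normalized. The submitters' processing notes name bcl2fastq, STAR 2.7.3a and mm10, and the study's methods name STAR and PISCES for reads of human samples. The mouse annotation and strand setting are not given in the sources used here. Reads from near-identical copies may be split or lost by such counting. Group and replicate number came from the sample titles. Symbols matched 51745 of 56205 identifiers, and the rest held 0.0587% of counts. Of the genes, 24871 had a count.

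Counts were fitted in R 4.3.3 with edgeR 4.0.16 (TMM, filterByExpr, robust quasi-likelihood test, Benjamini-Hochberg adjustment over 13416 genes), with the study's thresholds for a call, an adjusted p of at most 0.01 and a log2 fold change beyond 0.5 in either direction. The SE is the fold change divided by the root of the F statistic. The fit was tested on simulated data, where 66.3% of genes with a log2 change of 1 were called and 99.0% of those with 2. A gene not called may therefore still differ. Ratios used a pseudocount of 0.5 counts and a two-sided exact permutation test over 924 assignments, read at 0.05. Per-kilobase levels used GENCODE M21 transcript lengths. Within groups, all 30 pairs of libraries differed beyond sampling noise (smallest chi-square per degree of freedom 10.3). The labels speak of 6 mice per group and name no sequencing batch, so none could be compared within.

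Members and lists were chosen with earlier results of these data known. Named were the 9 members, the called genes of both pathway lists, Xist and Ddx3y, and the 3 genes nearest to each of Mat1a, Mat2a and Cth, of which 1 is not reported here. Alternatives were other normalizations and filters, scaling to 10 hepatocyte markers, DESeq2 1.42.0, limma-voom (limma 3.58.1), a non-robust fit and the replicate number as a block. Further ones were another threshold, a pseudocount of 5, summing with near-identical copies and leaving out each library. Other transcript lengths were tried for the Mat1a share only, not for the order of the per-kilobase levels.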

Additional observations from a re-analysis of the deposited data

Results flagged for a closer look

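The Cbs to Cth ratio of FLO replicate 4, at 1.03 counts of Cbs per count of Cth, stood apart from the other 5 FLO libraries at 0.793 to 0.855. Its gap to the nearest of them was 0.709 of the group's log2 range, more than Dixon's 95% limit for 6 samples. Of 30 sets of 6 libraries examined for such a gap this was the only one over the limit, where about 5% or 1.5 would pass by chance. The library was the lowest of its group for Bhmt and Mtr and the highest for Mat2b. No value was left out because of it.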

How the results depend on the processing

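Mat1a, Ahcy and Cth kept their calls and directions under all 25 alternatives, with log2 fold changes of -1.19 to -0.93, -1.32 to -0.99 and 1.04 to 1.39. The 4 ratios and the Mat1a share, which restates the Mat1a to Mat2a ratio, stayed on the same side of 0.05 under every alternative run. Leaving out 1 library gave 3 to 5 called members, and 3798 to 4093 called genes in all. Without fibrotic replicate 2 or 3, or FLO replicate 2 or 4, 3 members remained. With an adjusted p of 0.05 and no fold limit, 6994 genes, 6 members (Cbs added) and 12 of the 17 methyl supply genes were called, since this setting is less strict. Library size alone and hepatocyte-marker scaling each moved the median of all genes by 0.18 and the share of calls that were higher from 53.3% to 71.8% and 70.1%. Mat2b turned to 0.01 under both (0.0119 and 0.0109), Bhmt was called under the first (0.50, adjusted p = 0.00335) Sqor was lost and Mmadhc called under both (0.67 and 0.68; also 0.51 without any 1 of fibrotic replicates 1 to 3), and these scalings shift every gene the same way by construction. Gnmt was lost under library size alone (adjusted p = 0.0103) and with no low-count filter (0.0215), and the cause was not tested. DESeq2 called 4655 genes and limma-voom 3976. Same-numbered libraries deviated together in 1 of 6 pairs (r over 0.1, range -0.16 to 0.10) and 0 of 6 correlated best with their own number. No sign of pairing by number was seen, though such correlations cannot exclude it. The replicate block called 3780 genes, 5 members (Mat1a -1.13, Cth 1.196, Mat2a 0.53, Bhmt2 0.56, and Ahcy, also called), and the ratios as sign-flipped pairs all had p = 0.0312, the smallest that 64 exact flips allow. Mtr had the fewest counts of the 9, 102 to 167 per library, and its SE of 0.13 was smaller than those of Mat1a and Cth. Counting error is within the SDs given.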
